A study of Mus musculus with 48 samples.

Results

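The Zfp genes of the mouse with a number for a name are a loose family whose proteins carry C2H2 zinc fingers, and their transcripts were followed after a block of transcription in mouse embryonic stem cells. A gene was taken as a member when its symbol was Zfp followed by digits only, other than Zfp36 and Zfp42, and when it was listed in all 12 libraries of total RNA. Of 319 such genes listed in at least 1 of 48 libraries, 228 were members, out of 12762 genes of any name listed in all 12 total libraries and 23862 listed anywhere. The samples were E14TG2a cells, an established stem cell line kept in 2i + LIF medium, and every library came from cells given 1 µM flavopiridol, which blocks CDK9 and with it the elongation of RNA polymerase II. Cells were collected at 30, 60, 120 and 240 min in 3 independently passaged replicates, and each harvest gave total, nuclear, cytosolic and membrane RNA, which makes 3 libraries for each of 16 combinations of fraction and time. Untreated cells at 0 min were not analysed here as libraries of their own, since each deposited value is already a ratio to that time point. A titled time of 240 min is given as 180 min in the culture protocol, and 240 min was used.

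Most members encode proteins that bind DNA through a row of C2H2 fingers, each a short fold held by a zinc ion. Many also carry a KRAB domain, which recruits the corepressor Trim28 and, through it, histone methylation and HP1 proteins that silence transposable elements and imprinted loci, a pathway prominent in embryonic stem cells. Transcripts of regulatory genes of this kind are known as short-lived, so that their level follows transcription closely. With transcription blocked, a whole-cell ratio tracks decay of the RNA, a nuclear ratio tracks export and nuclear decay, and cytosolic and membrane ratios track arrival as well as decay.

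Of the 228 members, 224 were annotated as protein coding and 4 as pseudogenes. A KRAB-like motif, scored on the annotated coding sequence with a profile of 36 residues, was found in 144 members and not in 80. The profile was built from 106 of these same members that matched a KRAB pattern, so their high scores were set in advance. No score fell between 7.97 and 24 bits. Zfp37 (7.97) and Zfp446 (4.08) were counted as without the motif. Members with the motif had a median of 12 C2H2 finger matches and members without it a median of 5.5. The maximum of all members was 33, in Zfp619, which has the motif. The genes lay on 20 chromosomes, 54 of them on chromosome 7, 31 on chromosome 17, 19 on chromosome 4 and 17 on chromosome 13. Marker genes could be checked only for being listed, since ratios to the start carry no level. Of the embryonic stem cell markers, 9 of 10 were listed in all 12 total libraries (Esrrb was not). Of the fibroblast markers 1 of 5 was, and of the primitive endoderm markers 0 of 5. In no total library were 2 of the fibroblast and 3 of the primitive endoderm markers listed.

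The fingers repeat within and between members, which matters for how reads are assigned. The stretch searched for was HTGEKPY, coded by 21 bases, which spans a linker between 2 fingers and 1 finger residue on each side. At least 1 exact copy of it at the protein level was held by 154 members, up to 14 copies in 1 protein. Other forms of the linker were not counted, and Zfp626, with 17 finger matches, had 0 copies. The first copy is shown for 7 members below, read from the GENCODE transcripts (GRCm38) with the codons of this stretch in capitals. It shows how far the repeated code is alike between genes that differ in decay.
Zfp566: attCACACAGGTGAGAAGCCCTATgagtgt
Zfp599: gttCACACAGGTGAGAAGCCCTATgaatgt
Zfp568: atcCACACCGGTGAGAAGCCCTATaagtgc
Zfp809: aaaCATACGGGCGAGAAACCATATgaatgt
Zfp105: agcCACACTGGTGAGAAGCCGTATaagtgt
Zfp46: actCACACGGGCGAGAAGCCCTACgagtgc
Zfp442: attCATACTGGAGAGAAACCCTATgaagtt
The 21 capital bases of Zfp566 and Zfp599 were the same, and Zfp568 differed from them by A6C alone, counted from 1 at the first capital base with the base of Zfp566 first. Zfp809 differed from Zfp566 at 5 positions and Zfp46 at 3. Among 149 members compared, 93 different 21-base sequences were found for this stretch, and 69 members had one that no other compared member had. Over whole transcripts the overlap was smaller. No 75-base stretch, the read length, was shared with another gene in 116 members, at least 10% were shared in 39 members, and at least 50% in 10.

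In total RNA the members fell to a low level within 4 time points, further than genes in general. The median log2 ratio of the members was -0.46 ± 0.16 at 30 min, -1.21 ± 0.22 at 60 min, -2.22 ± 0.24 at 120 min and -3.00 ± 0.18 at 240 min (mean ± SD of 3 replicate medians), so that the median member was at 0.125 of its starting level at the last time. The median over all 12762 genes was -1.05 at 240 min. The difference between both medians was -0.25 ± 0.09 at 30 min, -0.75 ± 0.13 at 60 min, -1.42 ± 0.08 at 120 min and -1.94 ± 0.14 at 240 min, and it was below 0 in every replicate. The step per hour became smaller with time, from -1.49 ± 0.44 between 30 and 60 min to -1.01 ± 0.20 between 60 and 120 min and -0.39 ± 0.07 between 120 and 240 min. That of all genes became smaller too, at -0.48 ± 0.17, -0.35 ± 0.12 and -0.12 ± 0.08 in turn.

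A straight line of the log2 ratio on hours, fitted with limma across all genes, gave each gene a slope and a Benjamini-Hochberg adjusted p, called below 0.05. In total RNA 210 of 228 members fell, where 56.9% of all genes tested fell, and 2 members rose, where 3.39% of all genes rose. The median slope was -0.70 log2 per h for members and -0.22 for all genes. Membership required a listed value in all 12 total libraries, and a gene that dropped to 0 is not listed, so the members leave out the genes that vanished. Of the 91 genes that were not members, 54 to 57 were listed in a total library at 30 min and 27 to 35 at 240 min. With every library's median gene set to 0, 181 members fell and 6 rose in total RNA, and the median slope of all genes was then the zero point.

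**Figure D1:**
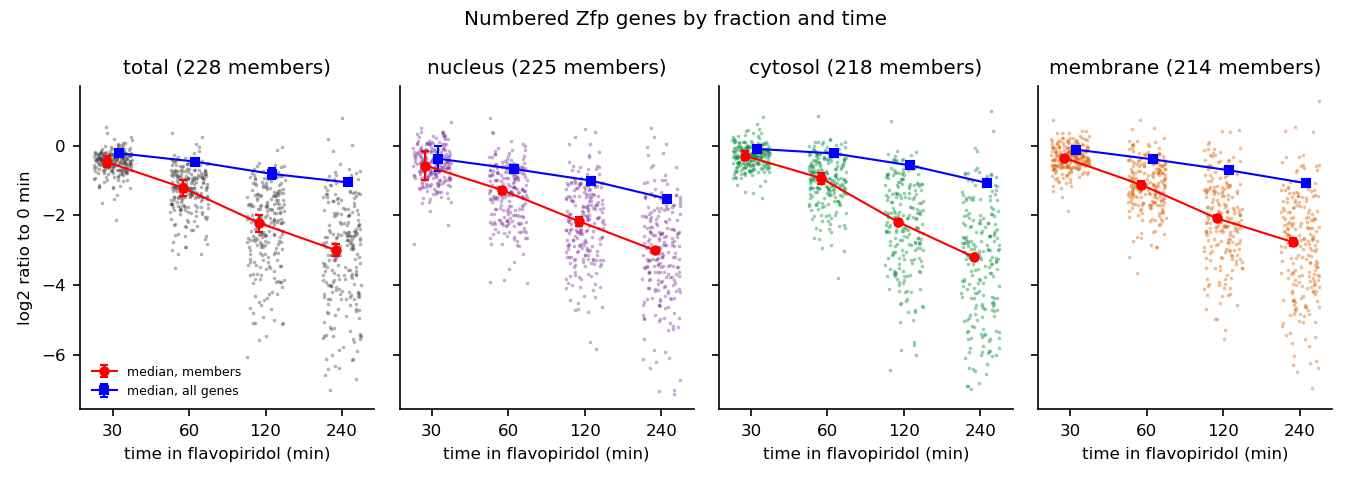
Log2 ratio to 0 min of every member against time in flavopiridol (min) in the 4 fractions, each grey or coloured point the mean of 3 replicates of 1 member. Red circles and blue squares are the median of members and of all genes tested in that fraction (mean ± SD of 3 replicate medians), and the red line lies below the blue one at every time, ending at -3.00 against -1.05 in total RNA.

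A fall was also the commonest call in each fraction. In the nucleus 202 of 225 members fell, where 61.9% of all genes did, and 3 rose, where 3.32% did. In the cytosol 207 of 218 fell, where 67.1% did, and 1 rose, where 2.95% did. In the membrane fraction 193 of 214 fell, where 62.2% did, and 3 rose, where 4.09% did. Of 209 members tested in all fractions, 176 fell in all 4, which is 84.2%, beside 49.3% of the 10694 genes tested in all fractions. The median slope was -0.66 log2 per h for nuclear, -0.84 for cytosolic and -0.67 for membrane RNA, beside -0.30, -0.28 and -0.26 for all genes. Member slopes correlated between total and cytosol with Pearson's r of 0.920 over 218 members and between nucleus and cytosol with 0.705 over 217, and the fractions of a harvest share cells and the same reference time.

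At 30 min the median member was at 0.674 of its starting level in nuclear, 0.819 in cytosolic, 0.787 in membrane and 0.725 in total RNA. By 240 min these ratios were 0.125, 0.109, 0.146 and 0.125. At 30 min the nuclear medians of the 3 replicates were -1.02, -0.24 and -0.46 on the log2 scale, a wider spread than at any other time, with replicate 1 lowest, and the mean of the nuclear medians went from -0.57 to -0.35 without that library, beside -0.35 in membrane RNA. Relative to the median of all genes, members at 30 min were at -0.20 in nuclear, -0.20 in cytosolic, -0.23 in membrane and -0.25 in total RNA. Levels cannot be set against each other between fractions or between genes, since each is a ratio to its own start, and in bulk RNA fewer cells of a kind and less RNA per cell cannot be told apart.

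Each step in time was also read from the replicates directly, as the members whose 3 values at 1 time lay entirely to 1 side of the 3 values at the time before. In total RNA, 170 of 228 members were lower at 60 than at 30 min in this way (all genes 33.8%), 178 at 120 than at 60 min (40.1%) and 123 at 240 than at 120 min (33.9%). Members that were higher at the later time numbered 1, 1 and 7 for these steps, where 1.58%, 1.5% and 10.7% of all genes were. In nuclear RNA, 134 of 225 members were lower at 60 than at 30 min in this way (all genes 22.7%), 169 at 120 than at 60 min (38.9%) and 153 at 240 than at 120 min (50.5%). Members that were higher at the later time numbered 1, 3 and 5 for these steps, where 1.8%, 4.69% and 5.61% of all genes were. Falls without overlap were thus more frequent among members than among all genes at each step in both. In cytosolic RNA, 141 of 218 members were lower at 60 than at 30 min in this way (all genes 23%), 193 at 120 than at 60 min (48%) and 163 at 240 than at 120 min (52.7%). Members that were higher at the later time numbered 1, 2 and 2 for these steps, where 3.1%, 1.8% and 4.71% of all genes were. In membrane RNA, 170 of 214 members were lower at 60 than at 30 min in this way (all genes 42.3%), 163 at 120 than at 60 min (43%) and 125 at 240 than at 120 min (41.1%). Members that were higher at the later time numbered 3, 5 and 3 for these steps, where 3.05%, 3.47% and 5.91% of all genes were. Zfp827 was among the few higher members in all fractions between 60 and 120 min and again between 120 and 240 min.

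Half-lives were fitted as a single exponential through the ratios, with the starting level free. The median half-life of the members was 58.3 ± 5.85 min in total RNA (SD of the medians of 3 single-replicate series), 57.4 ± 30.2 min in nuclear, 54.7 ± 6.64 min in cytosolic and 60.1 ± 4.36 min in membrane RNA, beside 244, 176, 213 and 219 min for all genes. The nuclear value was 48.9 min without the 30 min library of replicate 1. In total RNA 116 members had a half-life under 60 min and 47 under 30 min, while 15 exceeded 240 min or had no finite value. The quartiles were 34.0 and 103 min in total RNA, and slopes had an interquartile range of 0.51 ± 0.04 log2 per h there, 0.43 ± 0.02 in nuclear, 0.61 ± 0.02 in cytosolic and 0.55 ± 0.02 in membrane RNA. A straight line on the log2 scale gave a longer median of 85.6 min in total RNA, and the curves flattened at late times.

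The 5 members with the shortest half-lives in total RNA were Zfp296, Zfp941, Zfp747, Zfp599 and Zfp105. Zfp296, a zinc finger factor of pluripotent cells, had a half-life of 14.2 ± 2.15 min and was at 0.553, 0.479 and 0.487 of its start in the 3 replicates at 30 min, at 0.117, 0.0893 and 0.139 at 60 min and at 0.019, 0.0105 and 0.0134 at 240 min. Its slope was -1.35 ± 0.23 log2 per h (SE, limma adjusted p = 0.000225), and every library at a later time was below every library at 30 min. Zfp105 was at 0.537, 0.65 and 0.567 at 30 min and at 0.00837, 0.0176 and 0.0114 at 240 min, with a half-life of 16.4 ± 2.49 min. Zfp599, a KRAB-type member whose linker is shown above, was at 0.404, 0.553 and 0.399 at 30 min and at 0.019, 0.0428 and 0.037 at 120 min, with a half-life of 15.9 ± 1.58 min. Zfp747 had a half-life of 15.7 ± 2.94 min, and 19.3% of its 75-base stretches were shared with another gene, so its value is less certain.

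Zfp941 shows why a slope can miss a fast member. Its ratios were 0.486, 0.575 and 0.544 at 30 min, 0.0922, 0.0878 and 0.193 at 60 min, 0.0106, 0.0259 and 0.0321 at 120 min and 0.0616, 0.0645 and 0.0618 at 240 min. All 3 values at 240 min lay above those at 120 min, and the slope of -0.73 ± 0.31 (SE) log2 per h did not pass (limma adjusted p = 0.0627), while the fitted half-life was 14.5 ± 5.00 min. These half-lives are shorter than the first interval of 30 min and rest on the fitted starting level. In all, 7 members had 3 values at 240 min above all 3 at 120 min in total RNA (Zfp426, Zfp46, Zfp580, Zfp618, Zfp787, Zfp827 and Zfp941), which is 3.07%, where 10.7% of all genes did. The reverse, all values lower at 240 min than at 120 min, held for 123 members, where 33.9% of all genes did.

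At the other end, Zfp827 and Zfp444 rose in total RNA, and Zfp618, Zfp704 and Zfp46 were the others of the 5 highest slopes among members with 1 sign of slope in all 3 single-replicate series. The rise of Zfp827, a factor linked to telomere chromatin, followed an early drop. Its total ratios were 0.465, 0.676 and 0.528 at 30 min, 0.24, 0.278 and 0.314 at 60 min, 0.379, 0.714 and 0.589 at 120 min and 0.881, 0.942 and 0.853 at 240 min. The lowest values were at 60 min, and no replicate passed its starting level at 240 min. Its slope was 0.33 ± 0.10 (SE) log2 per h in total RNA (limma adjusted p = 0.0159), and it also rose in the nucleus (0.30 ± 0.10, SE, limma adjusted p = 0.0153), cytosol (0.25 ± 0.10, SE, limma adjusted p = 0.0349) and membrane fraction (0.42 ± 0.13, SE, limma adjusted p = 0.0115), the 1 member to rise in all 4. The cytosolic call was lost without replicate 1, without replicate 3, with the replicate block and with the last time at 180 min, and no nuclear rise of any member remained without replicate 1. In the membrane fraction it reached 1.17, 1.32 and 1.46 at 240 min, all above the start.

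Zfp444 had total ratios of 0.646, 0.255 and 0.913 at 30 min and 1.06, 1.03 and 1.31 at 240 min, with groups that did not overlap. Its slope was 0.33 ± 0.12 log2 per h (SE, limma adjusted p = 0.0325), and it rose in the nucleus and the membrane fraction too. Zfp618, known as a partner of an UHRF protein, had total ratios of 0.491, 0.726 and 1.43 at 30 min, 0.258, 0.491 and 0.675 at 60 min and 2.24, 1.71 and 1.22 at 240 min. It rose in the nucleus (0.58 ± 0.21 log2 per h, SE, limma adjusted p = 0.0288), but its replicates were far apart and the total slope of 0.40 ± 0.18 (SE) did not pass (limma adjusted p = 0.074). The nuclear call of Zfp618 was lost without replicate 1. Neither total call held without replicate 1, where the limma adjusted p was 0.0653 for Zfp827 and 0.105 for Zfp444. Over 30 to 120 min alone it was 0.735 and 0.152. The call of Zfp444 was also lost without replicate 2 (limma adjusted p = 0.0629) and that of Zfp827 without replicate 3 (limma adjusted p = 0.0786).

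Zfp704 and Zfp46 were called in neither direction over all times, but both fell over 30 to 120 min alone. That slope was -0.62 log2 per h for Zfp46 (limma adjusted p = 0.009) and -0.25 for Zfp704 (limma adjusted p = 0.0296). Zfp704 was at 0.755, 0.817 and 0.767 at 30 min and 0.61, 0.652 and 0.618 at 240 min, a slope of -0.06 ± 0.04 log2 per h (SE, limma adjusted p = 0.171). Zfp46, which has 12 finger matches, was at 0.466, 0.532 and 0.608 at 30 min and from 0.283 to 0.334 at 60 min. It was at 0.265, 0.281 and 0.24 at 120 min and 0.347, 0.434 and 0.33 at 240 min. Its highest value at 120 min was below its lowest at 240 min. In all 16 members were called in neither direction in total RNA.

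**Figure D2:**
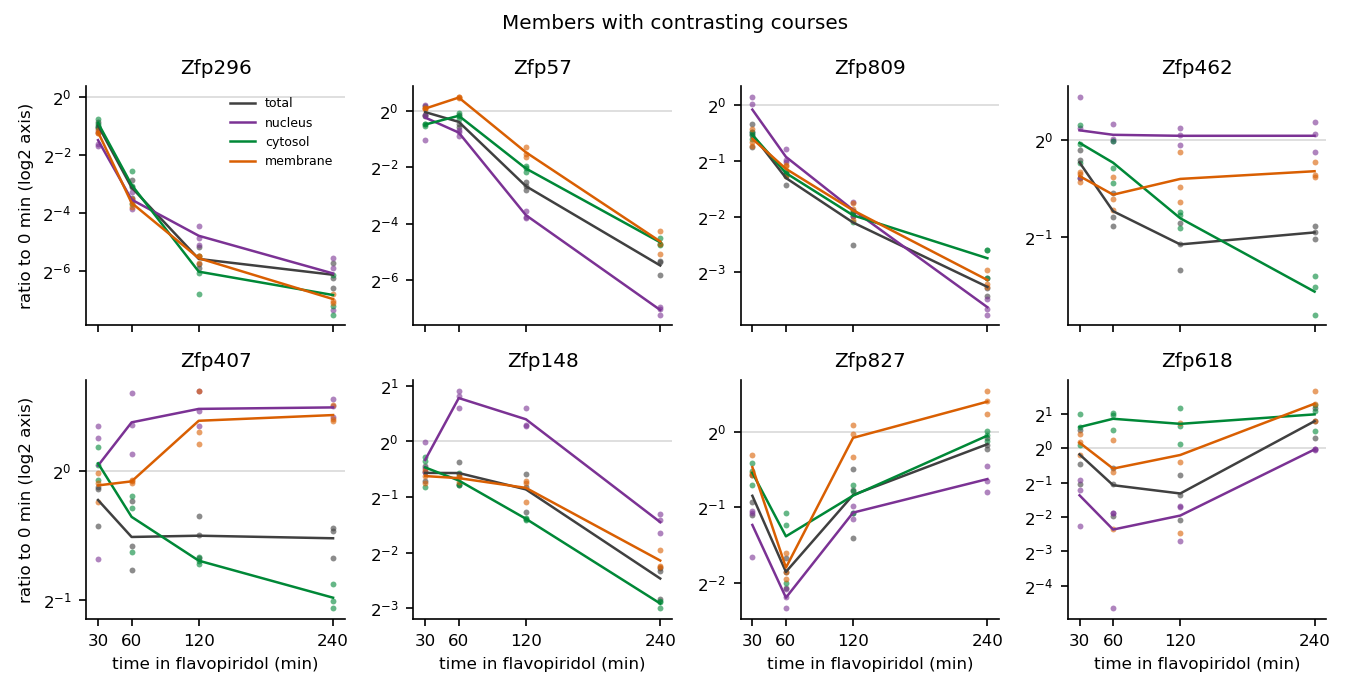
Ratio to 0 min (log2 axis) against time in flavopiridol (min) for 8 members in total RNA, nucleus, cytosol and membrane fraction, with points for single replicates and lines for their means. Zfp296 drops in all fractions, Zfp57 falls furthest in the nucleus, Zfp462 and Zfp407 fall in the cytosol with nuclear ratios near or above 1, and Zfp827 is lowest at 60 min.

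Among members with a known role, those of imprinting and retrovirus silencing differed from each other. Zfp57, the KRAB protein that keeps imprints methylated, was at 0.875, 1.13 and 0.905 in total RNA at 30 min and at 0.668, 0.718 and 0.905 at 60 min, then at 0.143, 0.156 and 0.174 at 120 min and 0.0177, 0.0248 and 0.025 at 240 min. Its slope of -1.61 ± 0.08 log2 per h (SE, limma adjusted p = 1.6e-08) was among the lowest of all members, with ratios of at least 0.668 up to 60 min and at most 0.174 from 120 min on. Zfp809, which silences retroviruses that carry a proline primer binding site, fell with a slope of -0.74 ± 0.07 (SE, limma adjusted p = 1.08e-06) and a half-life of 57.4 ± 7.25 min. Zfp568, a KRAB repressor of a placental Igf2 transcript, was at 0.398, 0.426 and 0.401 at 240 min, with a slope of -0.22 ± 0.06 (SE, limma adjusted p = 0.00609) and a half-life of 203 ± 9.06 min. The slope of Zfp568 was 0.0049 after centring on the median gene, and its fall did not pass without replicate 3 (limma adjusted p = 0.0684) or after scaling to the same total (0.143).

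Apart from Zfp296, described above with a far shorter half-life, the members with known roles away from KRAB silencing had half-lives from 53.7 to 335 min. Zfp622, a factor of ribosome subunit maturation, had a half-life of 65.2 ± 3.17 min, and Zfp91, an E3 ubiquitin ligase, one of 53.7 ± 7.52 min. Zfp451, a SUMO ligase, had a half-life of 88.9 ± 1.54 min, Zfp638, an RNA- and DNA-binding protein, one of 124 ± 18.5 min and Zfp326, part of a complex that couples elongation to splicing, one of 123 ± 11.4 min. Zfp148, a GC-rich promoter binding factor, followed with 139 ± 14.8 min, Zfp706 with 157 ± 3.01 min and Zfp335, a transcription regulator of neural progenitors, with 163 ± 7.54 min. The spindle protein Zfp207 had 226 ± 111 min, Zfp462, a heterochromatin factor of stem cells, had 273 ± 109 min, and the RNA-binding protein Zfp106 had the longest of these, 335 ± 35.0 min. All of these fell in total RNA, with limma adjusted p from 2.15e-08 for Zfp622 to 0.0359 for Zfp462. Zfp106 and Zfp462 had slopes of -0.17 ± 0.03 (SE) and -0.17 ± 0.06 (SE) log2 per h, which became 0.06 for both after centring on the median gene, a rise that passed for Zfp106 (limma adjusted p = 0.0324) and not for Zfp462 (0.194). The fall of Zfp462 did not pass without replicate 2 (limma adjusted p = 0.123) or 3 (0.223), nor did that of Zfp207 after centring (0.699) or over 30 to 120 min alone (0.137). Over 30 to 120 min alone the falls of Zfp148 (limma adjusted p = 0.159) and Zfp638 (0.173) did not pass either. After scaling to the same total the limma adjusted p was 0.711 for Zfp106, 0.901 for Zfp462 and 0.106 for Zfp207.

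Members with the KRAB-like motif had lower slopes than members without it in each fraction. In total RNA the median slope was -0.80 ± 0.04 log2 per h for 144 members with the motif (SD over 3 single-replicate series) and -0.57 ± 0.05 for 80 without it. The medians were -0.71 ± 0.08 and -0.59 ± 0.08 for nuclear, -0.91 ± 0.03 and -0.67 ± 0.06 for cytosolic, and -0.77 ± 0.05 and -0.56 ± 0.06 for membrane RNA. Of the members with the motif 137 of 144 fell in total RNA and 0 rose by limma's adjusted p (0 also at an unadjusted p under 0.05), and of those without it 69 of 80 fell and 2 rose. The median half-life in total RNA was 44.8 min with the motif and 82.4 min without it. Both groups overlapped widely, from -1.75 to -0.04 with the motif and from -1.53 to 0.40 without it, and no test was run on this split.

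**Figure D3:**
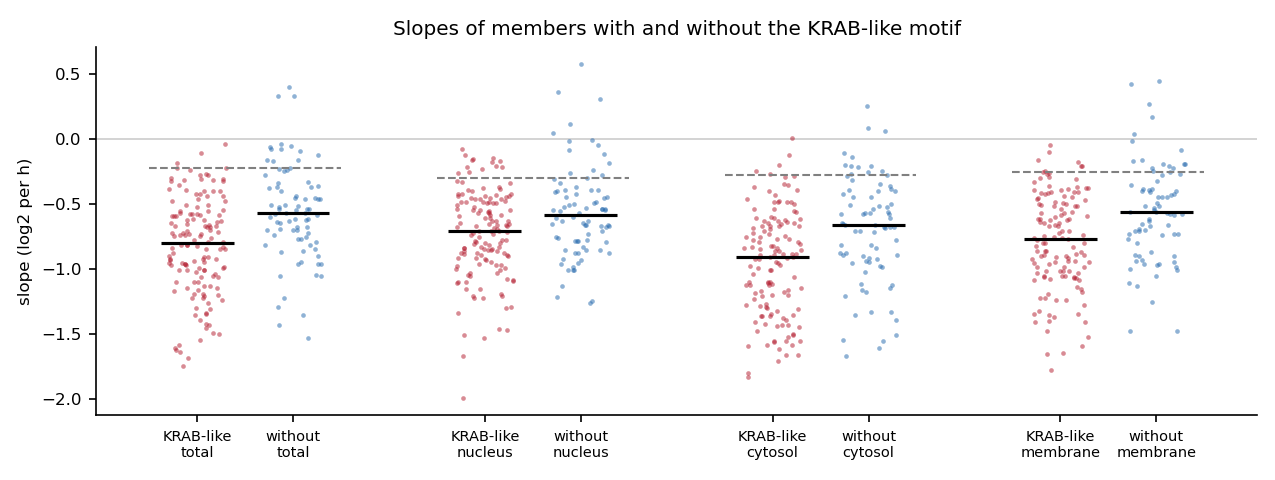
Slope (log2 per h) of each member with the KRAB-like motif (red) and without it (blue) in the 4 fractions, with a black bar at the median and a dashed line at the median of all genes tested. The 4 pseudogenes without a coding model are not drawn. The red median is lower in every fraction, at -0.80 against -0.57 in total RNA.

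Finger matches were also set against the slopes, with no test. Among members without the motif, 30 with at least 8 finger matches had a median slope of -0.63 in total RNA and 50 with fewer had -0.53. Among members with the motif these medians were -0.81 over 124 and -0.76 over 20. By finger matches alone, the median was -0.56 for 0 to 4, -0.68 for 5 to 9, -0.82 for 10 to 14 and -0.70 for 15 or more. In the nucleus the medians of members without the motif were -0.57 with at least 8 matches and -0.59 with fewer. Across 224 members the Spearman correlation of the total slope with finger matches was -0.17 and with protein length 0.12. Its correlation with the share of 75-base stretches held in common was -0.02 over 228 members, and 174 of 189 members under 10% shared fell, beside 36 of 39 above it.

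Related zinc finger families had slopes in the same range. Of 52 Zbtb, Zscan, Zkscan and Klf genes tested in total RNA, 46 fell and 3 rose, where 56.9% and 3.39% of all genes did, with a median slope of -0.70 and a median half-life of 47.6 min. The Klf genes, which include pluripotency factors, had a median slope of -0.97 over 13, the Zscan genes -0.93 over 6, the Zkscan genes -0.70 over 8 and the Zbtb genes, which pair fingers with a BTB domain, -0.61 over 25. Genes of the protein partners of KRAB silencing were also counted. Of 15 tested in total RNA, 7 fell, where 56.9% of all genes did, and 0 rose by limma's adjusted p (0 also at an unadjusted p under 0.05), with a median slope of -0.14. In cytosolic RNA 12 of 14 fell, where 67.1% of all genes did, and in membrane RNA 10 of 14, where 62.2% did. Trim28, the corepressor bound by KRAB, fell by 0.19 log2 per h (SE 0.03, limma adjusted p = 3.07e-05) with a half-life of 305 min. The HP1 gene Cbx5 had a slope of -0.11 (limma adjusted p = 0.0602) and the histone deacetylase gene Hdac1 0.01 (limma adjusted p = 0.773).

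Neighbouring members differed in slope about as much as members in general. Of all members 137 had another within 200000 bases, and 23 runs of 3 or more neighbours held 117 members. The median difference in slope between 104 adjacent pairs was 0.35 log2 per h in size, beside 0.37 between all 25878 pairs of members. The longest runs held 12 members each. The run on chromosome 13 (67038596 to 67792512, GRCm38) had 12 KRAB-like members, all falling, with a median slope of -1.16 and a range from -1.69 to -0.67. The run on chromosome 17 (21450374 to 22361400) had 12 KRAB-like members with a median of -0.82 and a range from -1.43 to -0.35. A run of 9 on chromosome 4 (146971976 to 147848366) had a median of -0.57, and 6 of its genes shared at least 10% of their 75-base stretches with another gene, so that their values are uncertain.

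The pair Zfp566 and Zfp568 lies in 1 run of 8 on chromosome 7 (29768552 to 30169750). Zfp566, from 30077337 to 30090527 and named after its values were seen, shared 14.3% of its 75-base stretches with another gene, so its value is less certain. It was at 0.579, 0.72 and 0.814 at 30 min and 0.0209, 0.00973 and 0.00505 at 240 min, with the lowest slope of all members, -1.75 ± 0.11 (SE) log2 per h. Zfp568, from 29983955 to 30028282, kept 0.398, 0.426 and 0.401 at 240 min. All replicates of Zfp568 at 240 min were above those of Zfp566. Another pair, Zfp809 (22225714 to 22243354) and Zfp599 (22247430 to 22259895) on chromosome 9, stood at 0.175, 0.253 and 0.269 and 0.019, 0.0428 and 0.037 at 120 min, Zfp599 lower in every replicate.

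**Figure D4:**
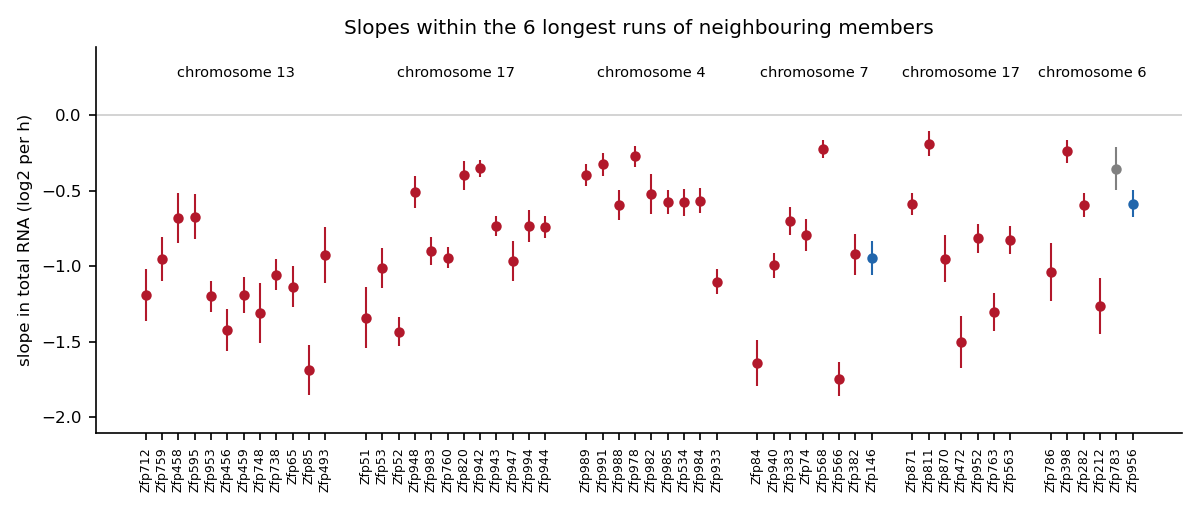
Slope in total RNA (log2 per h, bars show the SE) of members in the 6 longest runs of neighbours, in chromosomal order. Red points carry the KRAB-like motif, blue points do not and the grey point has no coding model. Within single runs slopes range from -1.75 for Zfp566 to -0.22 for Zfp568.

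Nuclear and cytosolic courses were compared by the difference of slopes between nucleus and cytosol, fitted in limma over 24 libraries. A higher slope in the nucleus means that the nuclear ratio fell less. It was higher in 45 of 217 members, where 12.3% of all genes were higher, and lower in 12, where 8.30% were lower. The median difference was 0.21 log2 per h for members and 0.03 for all genes. Over 49 Zbtb, Zscan, Zkscan and Klf genes it was 0.17, so a median above that of all genes was not particular to the members. The difference was above 0 in 75.6% of members, 73.5% of these related genes and 55.3% of all genes. With time and replicate number together as a block, on the reading that same-numbered fractions came from 1 harvest, 75 members were higher, where 14.3% of all genes were, and 13 were lower, where 9.46% were. These counts depended on single replicates. Higher slopes numbered 13, 27 and 10 and lower slopes 7, 5 and 4 without replicate 1, 2 or 3, and after adding 0.1 to each ratio 22 were higher and 4 lower.

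The 3 members with the smallest adjusted p among the higher ones were Zfp462, Zfp750 and Zfp442. Zfp462 stayed at 1.09, 1.04 and 0.964 in the nucleus at 120 min and 1.14, 0.917 and 1.04 at 240 min, while its cytosolic ratios were 0.586, 0.597 and 0.532 and 0.376, 0.35 and 0.286. The nuclear values were above the cytosolic ones in every replicate at both times, with a slope difference of 0.44 ± 0.06 log2 per h (SE, limma adjusted p = 5.07e-05). Zfp750, known from epidermal differentiation, was at 0.123, 0.189 and 0.167 in the nucleus and 0.0389, 0.0123 and 0.0176 in the cytosol at 240 min, a difference of 0.87 ± 0.12 log2 per h (SE, limma adjusted p = 7.56e-05). Zfp442 was at 0.141, 0.142 and 0.154 in the nucleus and 0.072, 0.0228 and 0.0244 in the cytosol at 240 min, a difference of 0.69 ± 0.14 (SE, limma adjusted p = 0.00179). It shared 21.4% of its 75-base stretches with another gene, and its call was lost after adding 0.1 (limma adjusted p = 0.0548) or 1 (0.415), without replicate 3 (0.11) and over 30 to 120 min alone (0.0514). Over 30 to 120 min alone the limma adjusted p was 0.0511 for Zfp462 and 0.0659 for Zfp750, and after adding 1 that of Zfp750 was 0.403.

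The lower ones were led by Zfp264, Zfp101 and Zfp57. Zfp264, annotated as a pseudogene, was at 0.182, 0.173 and 0.149 in the nucleus and 0.531, 0.528 and 0.518 in the cytosol at 240 min, a slope difference of -0.50 ± 0.07 log2 per h (SE, limma adjusted p = 0.000112). Zfp101 was at 0.0798, 0.0933 and 0.0685 in the nucleus and 0.253, 0.283 and 0.238 in the cytosol, a difference of -0.43 ± 0.08 (SE, limma adjusted p = 0.000769). The nuclear values of both were below the cytosolic ones in every replicate. The call of Zfp101 was lost over 30 to 120 min alone (limma adjusted p = 0.175) and after adding 1 (0.51).

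Zfp57 was at 0.596, 0.546 and 0.619 in the nucleus at 60 min and 0.00676, 0.00769 and 0.00822 at 240 min, its lowest ratios in any fraction. In the cytosol it was at 0.69, 0.725 and 0.73 at 30 min, 0.815, 0.892 and 0.956 at 60 min and 0.0368, 0.0386 and 0.0438 at 240 min, and in the membrane fraction at 1.08, 1.06 and 1.04, 1.41, 1.36 and 1.39 and 0.0301, 0.0385 and 0.0531. Its cytosolic and membrane ratios were higher at 60 min than at 30 min in every replicate, and its nuclear ratios at 30 min were 0.494, 1.16 and 0.895. The slope difference between nucleus and cytosol was -0.70 ± 0.13 log2 per h (SE, limma adjusted p = 0.0011) and -0.09 after adding 0.1 to each ratio (limma adjusted p = 0.678). Zfp57 was the 1 member in the cytosol with all values higher at 60 than at 30 min, where 3.10% of all genes were, and in the membrane fraction it was 1 of 3, with Zfp264 and Zfp990, where 3.05% were.

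A transient nuclear rise was seen for Zfp148. Its nuclear ratios were 0.68, 0.989 and 0.717 at 30 min, 1.51, 1.76 and 1.89 at 60 min, 1.51, 1.23 and 1.21 at 120 min and 0.404, 0.373 and 0.319 at 240 min. All 3 values at 60 min were above all 3 at 30 min, which held for 1 member in the nucleus, where 1.80% of all genes did so. In total RNA its ratios at 60 min were 0.582, 0.666 and 0.775. The nuclear slope of -0.45 ± 0.13 (SE, limma adjusted p = 0.00918) does not show this course.

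**Figure D5:**
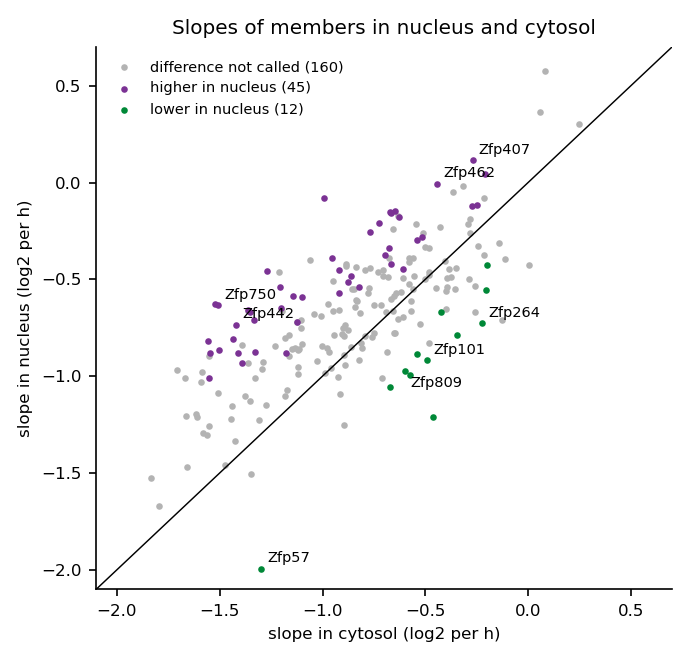
Slope in the nucleus against slope in the cytosol (both log2 per h) for 217 members, coloured by the call on their difference, with the line of equal slopes. More points lie above the line, 45 called higher in the nucleus and 12 lower, and Zfp57 has the lowest nuclear slope.

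The membrane and cytosolic fractions differed less. The slope in the membrane fraction was higher in 17 of 210 members, where 4.94% of all genes were higher, and lower in 1, where 1.76% were. The median difference was 0.15 log2 per h, beside 0.03 for all genes and 0.18 over 48 Zbtb, Zscan, Zkscan and Klf genes. With the same block 40 members were higher, where 6.37% of all genes were, and 3 were lower, where 2.28% were. Higher slopes numbered 8, 4 and 3 without replicate 1, 2 or 3, and 10 after adding 0.1 to each ratio. This comparison and that of the nucleus share the cytosolic libraries.

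The smallest adjusted p belonged to Zfp462, Zfp407 and Zfp646. Zfp462 was at 0.779, 0.771 and 0.853 in the membrane fraction at 240 min, a slope difference of 0.48 ± 0.05 (SE) log2 per h from the cytosol (limma adjusted p = 1.05e-05). Zfp407 was at 1.32, 1.43 and 1.31 in the membrane fraction, 1.47, 1.34 and 1.42 in the nucleus and 0.543, 0.478 and 0.495 in the cytosol at 240 min, and its membrane slope differed from the cytosolic one by 0.44 ± 0.06 (SE, limma adjusted p = 5.28e-05). It rose in the membrane fraction (0.17 ± 0.04 log2 per h, SE, limma adjusted p = 0.00244) and fell in the cytosol (-0.27 ± 0.04, SE, limma adjusted p = 8.79e-05), the 1 member of the 209 with calls in opposite directions.

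Zfp646, with 27 finger matches, was at 0.238, 0.263 and 0.195 in the membrane fraction and 0.0928, 0.109 and 0.0967 in the cytosol at 240 min, a difference of 0.36 ± 0.06 (SE, limma adjusted p = 0.00104). Its call was lost without replicate 1 (limma adjusted p = 0.0655) and after adding 1 (0.476). Zfp101 was the 1 member with a lower membrane slope, -0.34 ± 0.06 (SE, limma adjusted p = 0.000756). It was at 1.07, 1.17 and 1.14 at 30 min and 0.125, 0.155 and 0.154 at 240 min in the membrane fraction, beside 0.732, 0.875 and 0.905 and 0.253, 0.283 and 0.238 in the cytosol. The membrane values were higher at 30 min and lower at 240 min than the cytosolic ones in every replicate.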

How the data were processed

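Polyadenylated RNA from 48 libraries was read as the deposited normalised read counts. According to the submitters' processing notes and the methods, the authors aligned paired reads of 75 cycles with STAR 2.7.6, counted them with RSEM 1.3.3 on mm10, scaled libraries on genes with long known half-lives and divided each series by its 0 min library, so that the deposited value is a ratio, with genes at 0 not listed and no counts. Fractions were made with digitonin (cytosol) and then a detergent lysis (membrane), the pellet being the nucleus.

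Ratios were taken as log2 with no pseudocount, for genes with a value in each of the 12 libraries of 1 fraction (24 for a difference of slopes). Slopes on hours and slope differences were fitted with limma 3.58.1 (R 4.3.3) with a mean-variance trend across all genes and Benjamini-Hochberg adjustment at 0.05. Both were tested on simulated data with straight courses, in which 100 genes had each size of change and all other genes had none. In total RNA 30% of slopes of 0.2 log2 per h in size and 84% of slopes of 0.5 were recovered. For slope differences of these sizes between nucleus and cytosol, 11% and 60% were recovered, so in that setting most differences of the smaller size were missed. Far fewer genes changed in the simulation than were called in the data. The adjusted cut-off was therefore stricter there, and these rates do not carry over to the real calls. Half-lives were least-squares fits of an exponential with a free starting level. P-values measure the scatter of single libraries about the fitted straight line. This scatter holds both the spread between 3 replicates, passaged independently, and any bend of the course. The protocol splits each harvest into all fractions, but that same-numbered fractions of a time are 1 harvest is a reading that the labels do not state, and the harvest block rests on it. Their deviations from group means correlated with a mean of 0.01 between nucleus and cytosol and 0.06 between cytosol and membrane fraction over 12 pairs each.

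Symbols were matched for 23786 of 23862 gene IDs. Gene positions, finger matches, the KRAB-like motif (score of at least 20 bits) and linker sequences were taken from GENCODE vM21 on GRCm38, the build called mm10, whose release may differ from the one used by the authors. Shared sequence is the percent of 75-base stretches of a gene's transcripts found in another gene.

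Named genes are the 5 shortest half-lives and 5 highest slopes in total RNA among members with 1 slope sign in all 3 single-replicate series, all members that rose in total RNA, the 3 smallest adjusted p in each direction of the slope differences, and 15 members with a known role, of 20 listed, whatever their values. Members and lists were chosen with earlier results of these data known. Alternatives covered pseudocounts, filters on listing, 3 scalings, blocks, the trend, single replicates, times and half-life models.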

Additional observations from a re-analysis of the deposited data

Results flagged for a closer look

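The slope in the nucleus minus that in the cytosol differed from 0 by limma's interaction term (adjusted p under 0.05) in 12 members with a lower and 45 with a higher slope. The members named for it had differences of -0.50 (Zfp264), -0.43 (Zfp101), -0.70 (Zfp57), 0.44 (Zfp462), 0.87 (Zfp750) and 0.69 log2 per h (Zfp442). The slope in the membrane fraction minus that in the cytosol differed in 1 member with a lower and 17 with a higher slope. The members named for it had differences of -0.34 (Zfp101), 0.48 (Zfp462), 0.44 (Zfp407) and 0.36 log2 per h (Zfp646). Groups of 3 replicates were too small to single out samples.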

How the results depend on the processing

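The count of members that fell in each fraction stayed within 1.5 times its value under every alternative run. The few rises did not. Members that rose in total RNA, nucleus, cytosol and membrane fraction numbered 6, 15, 5 and 9 after centring each library on its median gene and 5, 9, 2 and 6 after scaling to the same total. Over 30, 60 and 120 min alone they numbered 0, 0 and 0 in total RNA, nucleus and cytosol (limma, 0 also at an unadjusted p under 0.05 in each). In the cytosol 2 rose among genes listed in at least 9 of 12 libraries, 0 with the replicate block (1 at an unadjusted p under 0.05) and 0 with the last time set to 180 min (0 at an unadjusted p). Leaving out 1 replicate gave 0 to 2 rises in total RNA, 0 to 3 in the nucleus, the nuclear 30 min library of replicate 1 included as 1 such omission, and 0 to 1 in the cytosol. The counts of 0 were 1, 1 and 0 at an unadjusted p without replicate 1 in these 3 and 1 in the cytosol without replicate 3. For nucleus against cytosol, adding 0.1 or 1 to each ratio left 4 and 1 lower and 22 and 11 higher slopes, and a last time of 180 min gave 70 higher ones. Leaving out 1 replicate or the nuclear library gave 4 to 16 lower and 10 to 43 higher slopes. For membrane against cytosol, adding 0.1 or 1 left 10 and 4 higher slopes, the last time at 180 min gave 27, and leaving out 1 replicate gave 3 to 8. The 1 lower slope became 0 after adding 1 (2 at an unadjusted p under 0.05), 2 among genes listed in all 48 libraries, after scaling to ribosomal protein genes or without the mean-variance trend, 4 after centring, scaling to the same total or over 30 to 120 min alone, and 3 with the last time at 180 min. Leaving out members with at least 10% shared 75-base stretches, an alternative chosen after seeing the data, changed no count by over 1.5 times. With the replicate number as a block, 209, 201, 206 and 194 members fell and 2, 2, 0 and 3 rose in total RNA, nucleus, cytosol and membrane fraction, 12 were lower and 38 higher in nucleus against cytosol, and 1 was lower and 16 higher in membrane against cytosol. With the harvest as a block, a pairing read from the protocol and not seen in the correlations, 13 were lower and 75 higher in nucleus against cytosol and 3 lower and 40 higher in membrane against cytosol. The replicate numbers alone were not seen to pair samples across times, with a mean correlation of deviations of 0.03 between same-numbered libraries of a fraction. After centring on the median gene the slopes of Zfp106, Zfp462, Zfp568 and Zfp704 in total RNA turned from below to above 0, at 0.058, 0.062, 0.0049 and 0.17, and after scaling to the same total that of Zfp704 did, at 0.10. The cause was not tested. The median half-life in total RNA, nucleus, cytosol and membrane fraction was 85.6, 90.3, 71.8 and 89.5 min from a straight line on log2, 107, 132, 88.4 and 123 min after centring and 93.3, 94.8, 84.2 and 101 min after scaling to the same total. It was 69.1 min in the membrane fraction after scaling to ribosomal protein genes, 67.8 min in the cytosol with the starting level fixed at 1, and 48.3 and 47.4 min in total RNA and membrane fraction over 30 to 120 min alone. The median log2 ratio of members after centring was -0.25, -0.75, -1.42 and -1.94 in total RNA at 30, 60, 120 and 240 min, -0.61, -1.16 and -1.48 in the nucleus at 60, 120 and 240 min, -0.71, -1.62 and -2.14 in the cytosol at 60, 120 and 240 min and -0.23, -0.72, -1.38 and -1.70 in the membrane fraction at 30, 60, 120 and 240 min. The median log2 ratio of members after scaling to the same total was -0.27, -0.80, -1.51 and -2.21 in total RNA at 30, 60, 120 and 240 min, -0.82, -1.52 and -2.04 in the nucleus at 60, 120 and 240 min, -0.74, -1.68 and -2.39 in the cytosol at 60, 120 and 240 min and -0.28, -0.82, -1.54 and -2.02 in the membrane fraction at 30, 60, 120 and 240 min. The median log2 ratio of members after scaling to ribosomal protein genes was -0.91, -1.72 and -2.58 in the nucleus at 60, 120 and 240 min, -2.1 and -3.02 in the cytosol at 120 and 240 min and -0.30, -0.97, -1.93 and -2.59 in the membrane fraction at 30, 60, 120 and 240 min. Among genes listed in all 48 libraries it was -3.13 in the cytosol at 240 min. The interquartile range of slopes was 0.94, 0.66, 1.11 and 0.89 log2 per h over 30 to 120 min alone, and 0.41 to 0.45 in the nucleus and 0.60 to 0.63 in the cytosol on leaving out 1 replicate or library. The median slope with and without the KRAB-like motif was -0.58, -0.39, -0.63 and -0.51 and -0.34, -0.27, -0.39 and -0.30 after centring, -0.64, -0.51, -0.69 and -0.59 and -0.41, -0.39, -0.45 and -0.38 after scaling to the same total, and -1.35, -1.21, -1.44 and -1.29 and -0.89, -0.84, -0.92 and -0.90 over 30 to 120 min alone, in total RNA, nucleus, cytosol and membrane fraction in turn. With the motif it was -0.76 in total RNA among genes listed in all 48 libraries and -0.87 in the cytosol after scaling to ribosomal protein genes, and without it -0.62 to -0.56 in total RNA on leaving out 1 replicate. It was lower with the motif in each of these settings. The files hold ratios without counts, so the depth behind each value is unknown and low ratios carry an error that cannot be computed.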

Other observations

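Genes of the family that were not members were also tested where they had a value in each of the 12 libraries of a fraction. In the nucleus 17 such genes were tested, of which 9 fell and 1 rose (limma adjusted p under 0.05, where 61.9% and 3.32% of all genes did), with a median slope of -0.42 log2 per h. In the cytosol 5 of 6 fell, where 67.1% of all genes did, and in membrane RNA 5 of 7 fell, where 62.2% did, with a median slope of -0.66. Of the 319 genes of the family, 242 had a value in each nuclear library, 228 in each total, 224 in each cytosolic and 221 in each membrane library.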
